A study of Mus musculus with 12 samples.

Results

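The genes described here are 9 receptors that T cells use for costimulation or display on activation, chosen by name: Tnfrsf4, Tnfrsf9, Tnfrsf18, Cd27, Icos, Cd69, Cd44, Cd5 and Cd6. They are 9 of the 20778 gene symbols in the count table, and 9 of 9 passed the filter on low counts that left 12122 genes for testing. Messenger RNA was sequenced from CD8 T cells that had been taken with magnetic beads (MojoSort) from the spleens of C57BL/6 mice, 6 weeks old by the labels, and then held in culture for 6 h. The untreated cells are called Naïve, and the other 3 groups received an antibody to CD3, the chain of the T cell receptor complex that passes on its signal (αCD3), interferon gamma (IFNγ, 70 ng/ml) or lipopolysaccharide, a bacterial cell wall component (LPS). For αCD3 and LPS the labels disagree on the unit of a dose of 1, µg/ml or mg/ml, and the age differs from that in the study's methods, where the mice are older. The design asks how the transcripts of T cells differ after these kinds of activation. Each group has 3 libraries, and nothing states whether the replicates came from separate mice, so the p-values measure the spread between these libraries, which may be technical.

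A T cell that meets its antigen is triggered through the T cell receptor, and costimulatory receptors then decide how far it divides and how long it survives. Tnfrsf9 (4-1BB), Tnfrsf4 (OX40), Tnfrsf18 (GITR) and Cd27 belong to the TNF receptor family, which signals through TRAF adaptor proteins to NF-κB, and Icos is a relative of CD28 that recruits phosphoinositide 3-kinase. Cd69 is an early activation marker that holds lymphocytes in tissue by removing the sphingosine-1-phosphate receptor S1PR1 from their surface, and Cd44 is a hyaluronan receptor that is abundant on activated and memory T cells. Cd5 and Cd6 are scavenger-type receptors that sit beside the T cell receptor and tune its signal.

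In the GENCODE M21 annotation of GRCm38 (mm10), 3 of the genes lie on chromosome 4 on the plus strand. Tnfrsf9 spans chr4:150914562-150946102, Tnfrsf4 chr4:156013843-156016612 and Tnfrsf18 chr4:156026164-156028895, with 9.55 kb and no protein-coding gene between the last pair. Cd5 (chr19:10717116-10739002) and Cd6 (chr19:10789341-10830058) are neighbours on the minus strand of chromosome 19, with 50.34 kb and no protein-coding gene between them. Cd27 (chr6:125232622-125237010) and Cd69 (chr6:129267325-129275436) lie on the minus strand of chromosome 6, Cd44 on the minus strand of chromosome 2 (chr2:102811141-102901665) and Icos on the plus strand of chromosome 1 (chr1:60977927-61000320). For Tnfrsf18, 78.1% of the 31-base words of its transcripts were unique to it, and the others are shared with the antisense gene Gm16008, so its estimated counts can include reads of that gene. For Cd27 95.4% of words were unique, and for the other 7 receptors at least 99.4%. Cd27 overlaps the protein-coding gene Vamp1, and Tnfrsf9 the protein-coding gene Camta1, on the other strand. Whether the libraries kept strand is not given in the sources used here.

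Promoter sequence was read from RefSeq (GRCm38.p6) as the 250 bases before an annotated start, and 6 of the 9 receptors were matched (Tnfrsf9, with 2 starts, Tnfrsf4, Tnfrsf18, Cd27, Cd5 and Cd44). Of these windows 4 are shown, because they belong to the gene with the greatest αCD3 change (Tnfrsf9, of whose 2 windows the one with more matches was chosen), to a pair whose transcripts rose with αCD3 and fell with LPS (Cd27 and Cd5) and to a gene that rose with LPS alone among the comparisons with Naïve (Cd44). Each is written 5′ to 3′ on the strand of its gene, and capitals mark matches on either strand to motifs of NF-κB, NFAT (GGAAA), AP-1 (TGANTCA) or an E-box (CAGNTG).
Tnfrsf9, chr4:150927749-150927998, plus strand: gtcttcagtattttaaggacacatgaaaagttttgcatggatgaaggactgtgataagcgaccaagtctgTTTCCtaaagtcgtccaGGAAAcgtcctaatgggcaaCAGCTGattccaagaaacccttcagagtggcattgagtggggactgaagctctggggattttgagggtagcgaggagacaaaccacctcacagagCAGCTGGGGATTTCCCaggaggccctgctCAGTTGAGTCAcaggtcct
Cd27, chr6:125237028-125237277, minus strand: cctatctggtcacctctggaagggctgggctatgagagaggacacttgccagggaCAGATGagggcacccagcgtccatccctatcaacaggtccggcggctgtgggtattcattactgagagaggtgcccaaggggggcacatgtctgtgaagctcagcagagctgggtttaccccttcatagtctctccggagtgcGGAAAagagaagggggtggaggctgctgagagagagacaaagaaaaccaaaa
Cd5, chr19:10738975-10739224, minus strand: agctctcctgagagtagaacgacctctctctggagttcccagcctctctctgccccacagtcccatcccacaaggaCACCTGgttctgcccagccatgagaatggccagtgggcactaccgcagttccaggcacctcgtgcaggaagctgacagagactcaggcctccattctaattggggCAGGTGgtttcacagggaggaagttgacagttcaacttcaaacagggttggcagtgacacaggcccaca
Cd44, chr2:102901666-102901915, minus strand: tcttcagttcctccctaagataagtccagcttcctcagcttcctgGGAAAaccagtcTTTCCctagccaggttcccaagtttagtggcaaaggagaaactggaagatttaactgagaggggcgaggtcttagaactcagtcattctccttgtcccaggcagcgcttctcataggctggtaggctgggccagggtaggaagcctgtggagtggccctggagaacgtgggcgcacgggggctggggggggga

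Both Tnfrsf9 windows lie inside the annotated span of the gene, and the one before the downstream start held 9 matches, counting overlapping ones. NF-κB matches began 43 and 42 bases before the start and overlapped an NFAT match at 38, and an AP-1 match lay at 15 and overlapped an E-box match at 19. Among 32851 promoter windows of this length, 7.25% held an NF-κB match and 6.75% an AP-1 match, so these motifs are uncommon by letters alone. NFAT matches were found in 55.6% and E-box matches in 44.8% of windows, and they are the matches in the windows of Cd27, Cd5 and Cd44. Among the other windows, that before the upstream Tnfrsf9 start held only NFAT matches, 220 and 137 bases before it. The window of Tnfrsf18 held NFAT matches 195 and 61 bases before its start and E-box matches at 231 and 73, and that of Tnfrsf4 held 1 NFAT match. A match of letters is a description and not a binding site.

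The libraries held 10196248 to 27610175 estimated counts, αCD3 replicate 1 being the deepest. Levels are in CPM, that is, counts divided by the TMM-adjusted library size and set on one common scale. Listed markers of T and CD8 T cells (8 genes) were present in every library, with a summed level of 1522 to 1655 CPM in Naïve, 1968 to 2173 CPM in αCD3, 1665 to 1730 CPM in IFNγ and 1316 to 1498 CPM in LPS. Markers of B cells (10 genes) were present too, at 3414 to 3720, 2391 to 2776, 2734 to 2839 and 2052 to 3073 CPM in the same order. Per kilobase of exon, the mean B cell marker reached 59.2 to 165 CPM and the mean T cell marker 68.8 to 109 CPM over the 12 libraries, so the libraries labelled CD8 T cells also hold RNA of other cells. Myeloid markers (10 genes) summed to 496 to 923 CPM in Naïve, 356 to 494 CPM in αCD3, 422 to 729.8 CPM in IFNγ and 351 to 538 CPM in LPS, and CD4 T cell markers (3 genes) to 80.0 to 93.6 CPM in Naïve and 50.9 to 61.2 CPM in LPS. No listed marker was at 0 in a whole group. Replicate 1 of every group stood apart by its erythroid and platelet transcripts (7 of 8 listed genes in the table), which summed to 345 to 579.6 CPM against 1303 to 4121 CPM in the other 8 libraries. It also had the lowest myeloid marker sum of its group in 4 of 4 groups, at 351 to 496 CPM against 427 to 923 CPM in the other 8. In such bulk samples, fewer cells of a type and less RNA per cell cannot be told apart.

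**Figure D1:**
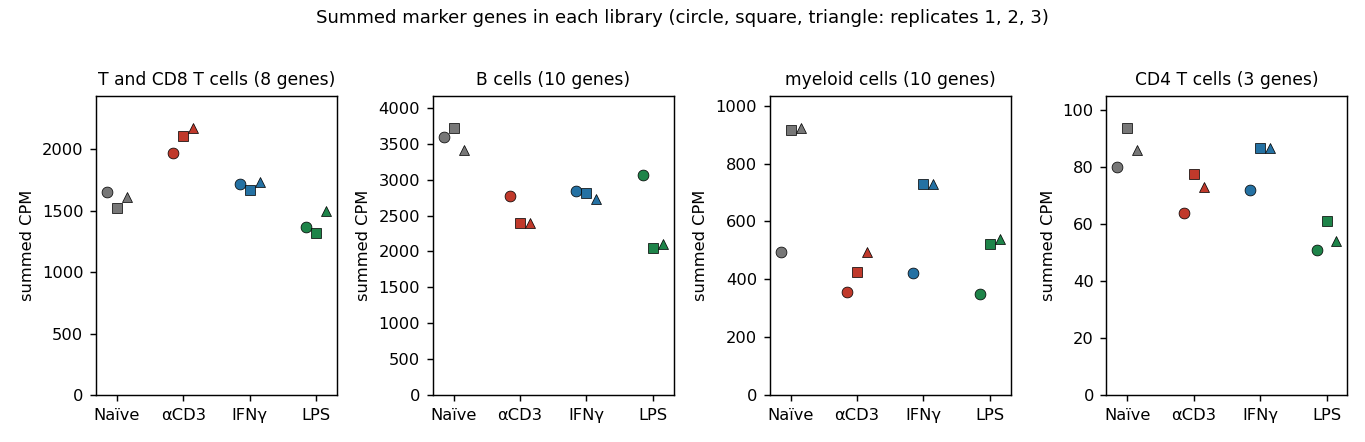
Summed CPM of marker genes of T and CD8 T cells, B cells, myeloid cells and CD4 T cells (vertical axes, each from 0) in each of the 12 libraries, with circles, squares and triangles for replicates 1, 2 and 3. T cell markers were above all Naïve libraries in the 3 αCD3 libraries (1968 to 2173 CPM) and below them in the 3 LPS libraries (1316 to 1498 CPM).

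After αCD3, 6 of the 9 receptors rose against Naïve and 0 fell: Tnfrsf9, Cd5, Cd27, Cd6, Icos and Cd69. Over all 12122 genes tested, 38.6% were called (22.9% higher and 15.7% lower), where called means an adjusted p under 0.05 in the quasi-likelihood test of edgeR. The median log2 change of the 9 receptors was 1.39, and that of all genes was -0.02. After IFNγ, 1 receptor rose, Cd69, and 0 fell, against 12.4% of all genes called (8.17% higher and 4.27% lower), and the median of the receptors was -0.07. After LPS, 2 receptors rose, Cd69 and Cd44, and 3 fell, Cd5, Cd27 and Cd6, against 49.3% of all genes called (26.9% higher and 22.3% lower), with a median of 0.21. The 3 treated and the 3 Naïve libraries did not overlap for 6 receptors with αCD3 (52.4% of all genes), for 1 with IFNγ (31.5%) and for 4 with LPS (58% of all genes). These 3 comparisons share the Naïve libraries. With the replicate number as a block, 2 receptors instead of 1 were called with IFNγ, Cd69 higher and Cd5 lower, but the calls over all genes also went from 12.4% to 24.9%. Without replicate 1 of every group, 8 receptors were called with αCD3, 4 with IFNγ and 8 with LPS, and no call was lost. The calls over all 12193 genes tested in that fit were then 48.8%, 23.3% and 55.1%.

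**Figure D2:**
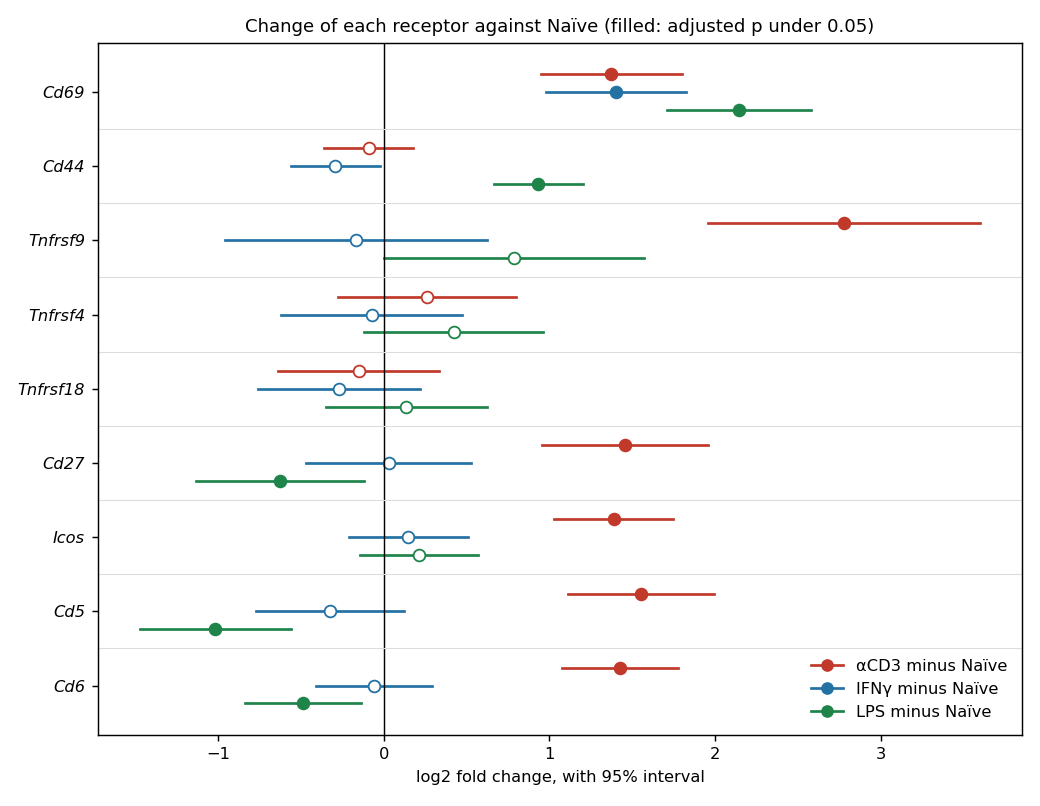
Log2 fold change of each receptor against Naïve (horizontal axis) after αCD3, IFNγ and LPS, with 95% intervals from the edgeR fit of 12 libraries. Filled circles are called: 6 for αCD3, all to the right, 1 for IFNγ (Cd69) and 5 for LPS, with Cd69 and Cd44 to the right and Cd27, Cd5 and Cd6 to the left.

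Cd69, the early activation marker, rose with each treatment. It stood at 154, 132 and 133 CPM in Naïve replicates 1 to 3 and at 288, 444 and 357 CPM after αCD3. After IFNγ it reached 322, 390.5 and 399 CPM, and after LPS 459, 746 and 653 CPM. No treated library fell within the Naïve range, and no LPS library within the αCD3 or IFNγ range. The log2 change against Naïve was 1.37 ± 0.19 (SE) with αCD3 (edgeR adjusted p = 0.000337), 1.40 ± 0.19 with IFNγ (0.00132) and 2.14 ± 0.20 with LPS (1.48e-05). These are 2.59-fold, 2.64-fold and 4.42-fold higher levels. The αCD3 and IFNγ groups, neighbours in the order of levels, overlapped, and the log2 difference of IFNγ minus αCD3 was 0.03 with a 95% interval of -0.39 to 0.44 (adjusted p = 0.924). LPS exceeded IFNγ by a log2 value of 0.74 (IFNγ minus LPS -0.74 ± 0.19, adjusted p = 0.00954) and αCD3 by 0.77 (αCD3 minus LPS -0.77 ± 0.19, adjusted p = 0.017). The call of LPS over αCD3 was lost in 5 of 21 alternatives. These were the fit of the compared groups only (-0.76, adjusted p = 0.0754) and the fits without αCD3 replicate 1 (-0.63, 0.0555), αCD3 replicate 3 (-0.76, 0.0567), LPS replicate 2 (-0.62, 0.0708) or LPS replicate 3 (-0.73, 0.0573).

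Cd44, the hyaluronan receptor, followed another course, and LPS was the only treatment with which it rose. Its levels were 139, 194 and 202 CPM in Naïve and 167, 172 and 163 CPM after αCD3. They were 131, 152 and 153 CPM after IFNγ and 345, 339 and 338 CPM after LPS. The 3 LPS libraries lay close together and above the other 9. The log2 change with LPS was 0.93 ± 0.12 (1.91-fold higher, edgeR adjusted p = 0.000129). With αCD3 it was -0.09 (95% interval -0.36 to 0.18, adjusted p = 0.582) and with IFNγ -0.29 (-0.56 to -0.02, adjusted p = 0.157), and neither passed the test. Naïve replicate 1 was the lowest of its group. Without it, Cd44 was lower after αCD3 (-0.24, adjusted p = 0.0356) and after IFNγ (-0.45, adjusted p = 0.00653) than in Naïve, and lower after IFNγ than after αCD3 (-0.20, adjusted p = 0.0426).

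**Figure D3:**
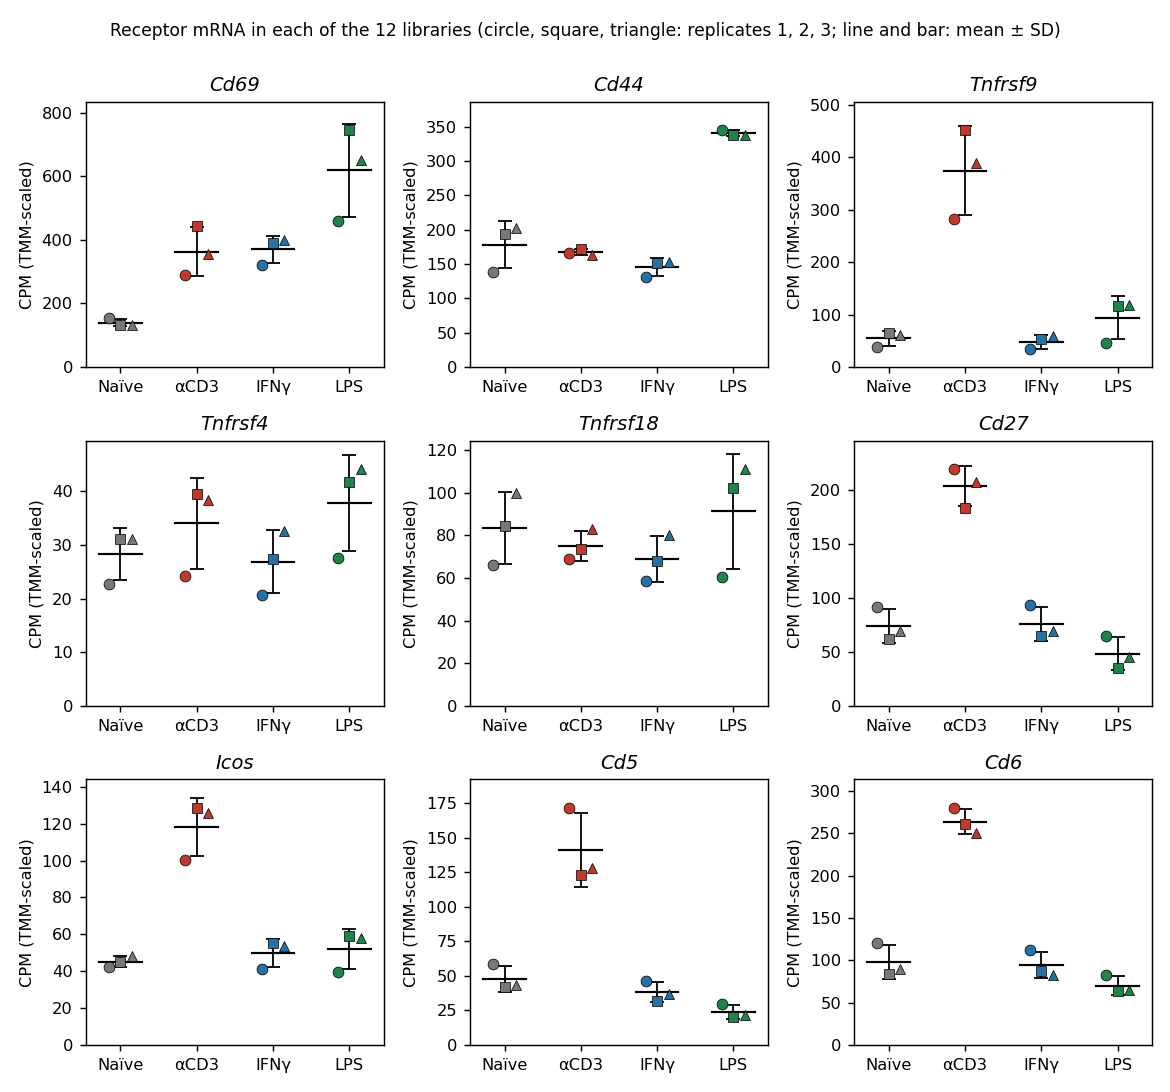
Level of the 9 receptors in each library (vertical axes, CPM on TMM-scaled library sizes, each from 0), with circles, squares and triangles for replicates 1, 2 and 3 and the mean ± SD of each group. Tnfrsf9, Icos, Cd27, Cd5 and Cd6 are highest in the 3 αCD3 libraries, Cd69 and Cd44 in the 3 LPS libraries, and Tnfrsf4 and Tnfrsf18 overlap between all 4 groups.

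Tnfrsf9, which encodes the costimulatory receptor 4-1BB, had the largest change of the 9. Its levels were 38.9, 65.0 and 60.2 CPM in Naïve replicates 1 to 3 and 283, 452 and 389.8 CPM after αCD3. All 3 αCD3 libraries lay above the highest library of the other groups, at 119 CPM. The log2 change was 2.78 ± 0.37, a 6.87-fold higher level (95% interval 3.88 to 12.1, edgeR adjusted p = 0.000272). After IFNγ it stood at 33.5, 53.5 and 58.9 CPM, within or below the Naïve range, with a log2 change of -0.17 (-0.96 to 0.62, adjusted p = 0.821). After LPS it stood at 46.7, 117 and 119 CPM, with replicates 2 and 3 above every Naïve library and replicate 1 among them. The log2 change with LPS of 0.79 ± 0.35 missed the threshold (adjusted p = 0.0893), but passed it with the replicate number as a block (0.73, adjusted p = 0.00274) and without LPS replicate 1 (1.11, adjusted p = 0.00945).

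Tnfrsf4 and Tnfrsf18, which encode OX40 and GITR and lie side by side on chromosome 4, showed no called difference between any 2 groups in the fit of all 12 libraries with TMM scaling and no block. Tnfrsf4 was at 22.7, 31.2 and 31.05 CPM in Naïve, 24.2, 39.5 and 38.4 CPM after αCD3, 20.7, 27.4 and 32.5 CPM after IFNγ and 27.5, 41.7 and 44.2 CPM after LPS. Tnfrsf18 was at 66.0, 84.1 and 99.7 CPM in Naïve, 68.7, 73.4 and 82.8 CPM after αCD3, 58.7, 68.1 and 80.2 CPM after IFNγ and 60.6, 102 and 111 CPM after LPS. In both genes replicate 1 was the lowest library of 4 of 4 groups, and the groups overlapped. The test for any difference among the 4 groups gave adjusted p = 0.263 for Tnfrsf4 and 0.379 for Tnfrsf18, and called the other 7 receptors, against 59.9% of all genes. With the replicate number as a block it called 9 of 9, and 72.2% of all genes.

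With that block, Tnfrsf4 was higher than Naïve after αCD3 (log2 change 0.24 ± 0.07, adjusted p = 0.0189) and after LPS (0.40 ± 0.08, adjusted p = 0.00103). It was then also lower after IFNγ than after αCD3 (-0.33, adjusted p = 0.00497) and than after LPS (-0.49, adjusted p = 0.000429). For Tnfrsf18 the block gave 1 call among the 6 comparisons, lower after IFNγ than after LPS (-0.38 ± 0.11, adjusted p = 0.015). With libraries scaled to T cell markers in place of TMM, Tnfrsf4 was lower than after LPS both after αCD3 (-0.75, adjusted p = 0.0134) and after IFNγ (-0.79, adjusted p = 0.0179). Tnfrsf18 was lower likewise (-0.87, adjusted p = 0.00369, and -0.70, adjusted p = 0.0203). That scaling moved the median log2 change of all genes to -0.59 for αCD3 against LPS and -0.26 for IFNγ against LPS, and relative to it Tnfrsf4 stood at -0.16 and -0.53 and Tnfrsf18 at -0.28 and -0.44. Regulatory T cells carry both receptors at rest. The listed regulatory T cell markers (4 genes) summed to 135 to 157 CPM in Naïve, 290.2 to 499 CPM after αCD3, 206 to 246 CPM after IFNγ and 386 to 670.2 CPM after LPS. Of these 4 genes, 3 rose and 1 fell with αCD3, 2 rose with IFNγ, and 2 rose and 1 fell with LPS. Il2ra, the interleukin 2 receptor chain that activated T cells also make, was at 59.1 to 77.6 CPM in Naïve and 309 to 584 CPM after LPS. Ikzf2 (Helios) went from 22.6 to 28.9 CPM in Naïve to 31.7 to 35.7 CPM after αCD3, 35.9 to 50.5 CPM after IFNγ and 35.2 to 35.6 CPM after LPS. Foxp3, the defining factor of regulatory T cells, stood at 23.4 to 28.2 CPM in Naïve. It was at 14.3 to 17.2 CPM after αCD3, 18.1 to 25.3 CPM after IFNγ and 15.9 to 19.9 CPM after LPS. Ctla4 stood at 27.96 to 29.1 CPM in Naïve, 40.8 to 53.9 CPM after αCD3 and 26.2 to 30.9 CPM after LPS. The part of these cells in the Tnfrsf4 and Tnfrsf18 values was not tested.

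Cd27, the receptor for CD70 that naïve T cells already carry, rose with αCD3 and fell with LPS. Its levels were 91.5, 61.8 and 69.1 CPM in Naïve replicates 1 to 3 and 219, 183 and 207 CPM after αCD3. They were 93.4, 64.4 and 69.4 CPM after IFNγ and 64.9, 34.8 and 45.0 CPM after LPS. The αCD3 libraries lay above all others, the IFNγ and Naïve libraries interleaved, and LPS replicate 1 lay within the Naïve range. The log2 change was 1.45 ± 0.23 with αCD3 (2.74-fold higher, edgeR adjusted p = 0.000695), 0.03 with IFNγ (95% interval -0.47 to 0.53, adjusted p = 0.956) and -0.63 ± 0.23 with LPS (adjusted p = 0.0422). The fall with LPS was lost in 8 of 21 alternatives and kept with the replicate block (-0.64, adjusted p = 0.000365). It was lost without Naïve replicate 1 (-0.45, adjusted p = 0.159), LPS replicate 2 (-0.44, 0.147) or LPS replicate 3 (-0.58, 0.116). It was also lost without Naïve replicate 3, αCD3 replicates 2 or 3 or IFNγ replicate 3 and in the fit of the compared groups only, with log2 changes of -0.68 to -0.62 and adjusted p of 0.0525 to 0.0716.

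Icos, the CD28 relative, changed with αCD3 among the comparisons with Naïve. It stood at 42.2, 44.9 and 48.1 CPM in Naïve and at 100.3, 129 and 126 CPM after αCD3. After IFNγ it was 41.3, 55.1 and 53.4 CPM, and after LPS 39.5, 58.9 and 57.9 CPM. The log2 change with αCD3 was 1.39 ± 0.16 (2.62-fold higher, edgeR adjusted p = 0.000105), and no αCD3 library overlapped another group. The changes with IFNγ (0.15, 95% interval -0.21 to 0.51, adjusted p = 0.635) and LPS (0.21, -0.15 to 0.57, adjusted p = 0.303) did not pass, nor did the difference between those treatments (-0.07, -0.43 to 0.30, adjusted p = 0.778). Without LPS replicate 1, Icos was higher after LPS than in Naïve (0.37, adjusted p = 0.0442).

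Cd5 and Cd6, the neighbouring genes on chromosome 19, rose with αCD3 and fell with LPS as Cd27 did. Cd5 was at 58.7, 41.7 and 43.4 CPM in Naïve, 171, 123 and 128 CPM after αCD3, 46.3, 31.9 and 36.8 CPM after IFNγ and 29.6, 20.1 and 21.8 CPM after LPS. Cd6 was at 121, 83.7 and 89.8 CPM in Naïve, 279.9, 261 and 251 CPM after αCD3, 112, 87.6 and 82.9 CPM after IFNγ and 82.5, 63.2 and 64.5 CPM after LPS. In both genes the αCD3 libraries lay above all others and the LPS libraries below all Naïve ones.

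The log2 change of Cd5 was 1.55 ± 0.20 with αCD3 (2.93-fold higher, edgeR adjusted p = 0.000208) and -1.02 ± 0.21 with LPS (2.02-fold lower, adjusted p = 0.00228). That of Cd6 was 1.43 ± 0.16 with αCD3 (2.69-fold higher, adjusted p = 8.18e-05) and -0.49 ± 0.16 with LPS (1.40-fold lower, adjusted p = 0.0262). The fall of Cd6 with LPS was lost without Naïve replicate 1 (-0.31, adjusted p = 0.112), without LPS replicate 2 (-0.42, adjusted p = 0.0963) and without LPS replicate 3 (-0.43, adjusted p = 0.0908), while that of Cd5 was kept in 21 of 21 alternatives. With IFNγ the change of Cd5 was -0.32 (adjusted p = 0.358) and passed with the replicate block (-0.32 ± 0.05, adjusted p = 0.000959). Cd6 changed by -0.06 with IFNγ (95% interval -0.41 to 0.29, adjusted p = 0.858).

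Directly compared, 5 receptors were lower after IFNγ than after αCD3 and 0 were higher (37.2% of all genes called, 15.8% higher and 21.4% lower). These were Tnfrsf9, at a log2 difference of -2.95 ± 0.38, Cd5 at -1.88 ± 0.20, Cd6 at -1.49 ± 0.16, Cd27 at -1.43 ± 0.23 and Icos at -1.24 ± 0.16, with edgeR adjusted p from 5.16e-05 (Cd6) to 0.000724 (Cd27). Between αCD3 and LPS, 7 receptors differed, against 19.4% of all genes (9.64% higher and 9.76% lower). Higher after αCD3 were Cd5 (2.57 ± 0.21, adjusted p = 2.76e-05), Cd27 (2.08 ± 0.23, adjusted p = 0.000243), Tnfrsf9 (1.99 ± 0.36, adjusted p = 0.00373), Cd6 (1.91 ± 0.16, adjusted p = 3.1e-05) and Icos (1.18 ± 0.16, adjusted p = 0.000701). Higher after LPS were Cd44 (αCD3 minus LPS -1.03 ± 0.12, adjusted p = 0.000288) and Cd69. The groups did not overlap for 6 receptors between IFNγ and αCD3 (48.4% of all genes) and for 7 between αCD3 and LPS (34.8% of all genes).

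Between IFNγ and LPS, 4 receptors differed, against 40.4% of all genes called (18% higher and 22.4% lower). Cd44 (-1.23 ± 0.12, edgeR adjusted p = 2.17e-05) and Cd69 were lower after IFNγ, and Cd5 (0.69 ± 0.21, adjusted p = 0.0216) and Cd27 (0.66 ± 0.23, adjusted p = 0.0423) were higher. The groups did not overlap for 4 receptors (49.8% of all genes), and for Cd27 they did overlap. With the replicate block 8 of the 9 differed, against 52.7% of all genes. Cd6 (0.42, adjusted p = 0.000695) then joined the higher receptors, and Tnfrsf9 (-0.90, adjusted p = 0.00111), Tnfrsf4 and Tnfrsf18 the lower ones. The difference of Cd5 was lost without IFNγ replicate 1 (0.54, adjusted p = 0.081), without LPS replicate 2 (0.58, adjusted p = 0.086) and without LPS replicate 3 (0.63, adjusted p = 0.0757), and that of Cd27 was lost in 10 of 21 alternatives. For Cd27 these were the fits without Naïve replicate 3, any αCD3 replicate, IFNγ replicates 1 or 3 or LPS replicates 2 or 3, without the count filter and of the compared groups only (0.47 to 0.71, adjusted p = 0.0504 to 0.145). Cd6 passed without Naïve replicate 1 (0.43, adjusted p = 0.0255), IFNγ replicate 3 (0.51, 0.0466) or LPS replicate 1 (0.56, 0.022). Without LPS replicate 1, Tnfrsf9 (-1.28, adjusted p = 0.00598), Tnfrsf18 (-0.63, 0.0147) and Tnfrsf4 (-0.68, 0.0472) passed too, which gave 8 called receptors against 41.1% of the 12342 genes tested in that fit. With libraries scaled to T cell markers, Cd5 (0.40, adjusted p = 0.164) and Cd27 (0.36, adjusted p = 0.223) no longer passed, and 0 receptors were higher and 5 lower after IFNγ in place of 2 and 2. Over all genes 5.33% were then higher and 37.3% lower, with a median of -0.26.

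**Figure D4:**
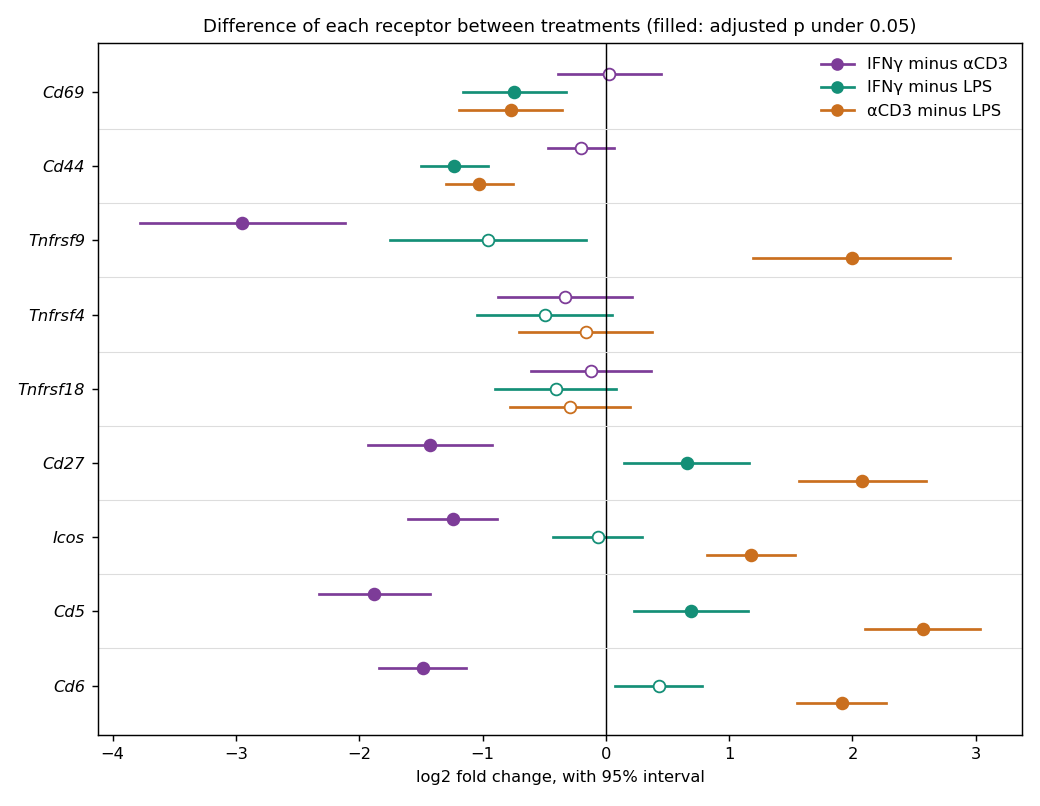
Log2 difference of each receptor between pairs of treatments (horizontal axis, first minus second), with 95% intervals from the edgeR fit of 12 libraries, filled where called. Tnfrsf9, Cd27, Icos, Cd5 and Cd6 lie to the left for IFNγ minus αCD3 and to the right for αCD3 minus LPS, and Cd69 and Cd44 lie to the left for both differences from LPS.

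The T cell markers moved in the same directions as several of these receptors. With αCD3, 4 of the 8 markers rose and 1 fell, and with LPS 5 fell and 0 rose. Each receptor was therefore also expressed per 100 CPM of summed T cell markers. On that scale Cd5 went from 3.00 ± 0.48 in Naïve to 6.81 ± 1.65 after αCD3, Cd6 from 6.12 ± 1.01 to 12.7 ± 1.38, Cd27 from 4.63 ± 0.79 to 9.79 ± 1.25, Icos from 2.83 ± 0.24 to 5.65 ± 0.51 and Tnfrsf9 from 3.45 ± 0.99 to 17.9 ± 3.52 (mean ± SD, n = 3). Cd69 went from 8.77 ± 0.53 to 17.4 ± 3.30 after αCD3, 21.7 ± 2.61 after IFNγ and 44.7 ± 11.5 after LPS, and Cd44 from 11.2 ± 2.47 to 24.5 ± 1.72 after LPS.

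When libraries were scaled to these markers in the edgeR fit, the 6 receptors called with αCD3 were called again, and Cd44 (-0.48, adjusted p = 0.0149) and Tnfrsf18 (-0.54, adjusted p = 0.0466) were called lower, against 7.66% of all genes higher and 47.5% lower. That scaling moved the median log2 change of all genes to -0.40 with αCD3, -0.12 with IFNγ and 0.19 with LPS. Calls under this scaling move with that shift, and relative to it Cd44 stood at -0.08 and Tnfrsf18 at -0.15 with αCD3. With LPS, Cd5 remained lower (-0.81, adjusted p = 0.00808), whereas the falls of Cd27 (-0.42, adjusted p = 0.141) and Cd6 (-0.28, adjusted p = 0.174) no longer passed, and Tnfrsf4 (0.61, adjusted p = 0.0495) and Tnfrsf9 (0.97, adjusted p = 0.05) were called higher, which gave 4 higher receptors and 1 lower in place of 2 and 3, against 35.6% of all genes higher and 10.7% lower. Relative to the median gene, Cd27 stood at -0.61, Cd6 at -0.47, Tnfrsf4 at 0.42 and Tnfrsf9 at 0.78 with LPS. Cd69 and Cd44 can be made by activated B cells and myeloid cells as well. With LPS, 1 of the 10 B cell markers rose and 3 fell, and 1 of the 10 myeloid markers rose and 4 fell. With αCD3, 5 of the B cell markers and 5 of the myeloid markers fell and 0 of either rose (median log2 changes -0.51 and -0.89), and with IFNγ 2 and 0 fell. The part of other cells in the receptor values was not tested.

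Levels of different genes were compared per kilobase of exon. In Naïve, Tnfrsf18 was highest at 54.6 ± 11.1 CPM per kilobase, followed by Cd27 (31.8 ± 6.64), Cd44 (26.3 ± 5.10), Cd69 (21.5 ± 1.92), Tnfrsf4 (20.7 ± 3.56), Tnfrsf9 (20.1 ± 5.10), Icos (13.1 ± 0.86), Cd6 (12.3 ± 2.49) and Cd5 (9.73 ± 1.90). In this order the ranges of neighbours overlapped, except between Tnfrsf18 and Cd27 and between Tnfrsf9 and Icos. After αCD3, Tnfrsf9 was first at 138 ± 31.5 and Cd27 second at 87.4 ± 7.90. After IFNγ Cd69 was first at 56.9 ± 6.45, and after LPS at 95.2 ± 22.5 with Tnfrsf18 (59.9 ± 17.7) and Cd44 (50.3 ± 0.61) behind it. These places are by the mean. The ranges of Cd69 and Tnfrsf18 overlapped after IFNγ (49.5 to 61.2 against 38.5 to 52.6) and after LPS (70.6 to 115 against 39.8 to 72.9). Those of Tnfrsf18 and Cd44 overlapped after LPS too. With the length of the longest transcript in place of that of all exons, only Icos, Cd5 and Cd6 changed places.

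**Figure D5:**
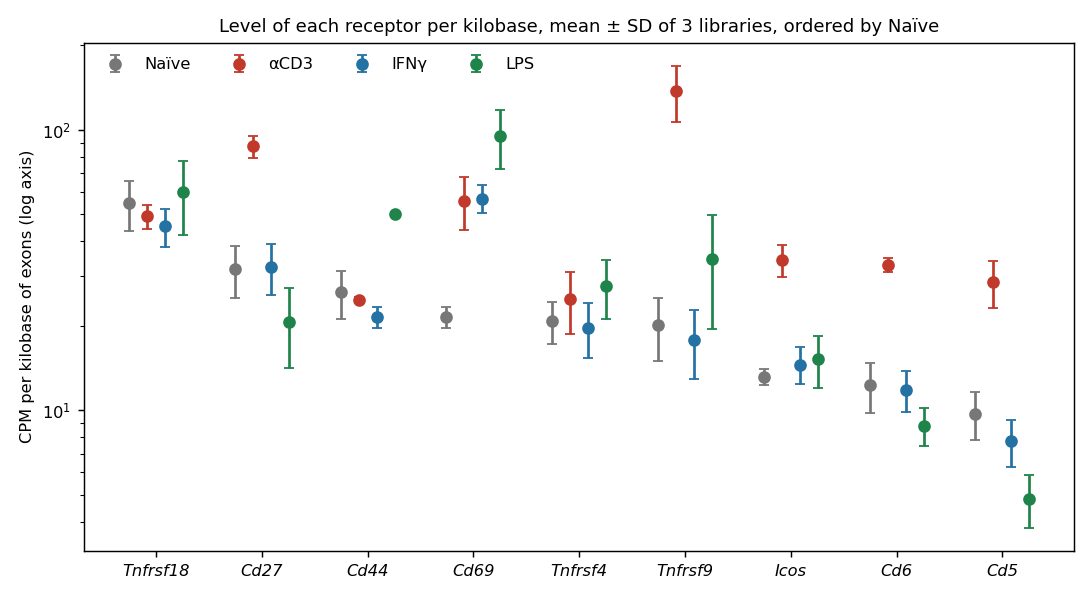
Level of each receptor in CPM per kilobase of exon (vertical log axis), mean ± SD of 3 libraries per group, with genes ordered by the Naïve mean. By the mean, Tnfrsf18 leads in Naïve at 54.6, Tnfrsf9 after αCD3 at 138, and Cd69 after IFNγ at 56.9 and after LPS at 95.2. The ranges of Cd69 and Tnfrsf18 overlap after IFNγ and after LPS.

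The lists of related genes are counted with TMM scaling, which gave 12 higher and 11 lower genes over all of them with αCD3 and 15 and 17 with LPS. Scaling to T cell markers gave 6 and 30 with αCD3 and 20 and 8 with LPS. With that scaling 7.66% of all genes were higher and 47.5% lower with αCD3, and 35.6% and 10.7% with LPS. Of the 8 ligands of these receptors, 7 were tested, and 2 were called with αCD3, 2 with IFNγ and 4 with LPS, against 38.6%, 12.4% and 49.3% of all genes. With αCD3, 1 rose and 1 fell: Tnfsf4, the OX40 ligand, went from 4.62 ± 2.97 to 18.1 ± 2.73 CPM (log2 change 1.94 ± 0.49, edgeR adjusted p = 0.0105), and Spp1 (osteopontin, a CD44 ligand) from 26.0 ± 11.0 to 9.62 ± 0.36 CPM (-1.43 ± 0.27, adjusted p = 0.00192). With IFNγ, 2 rose: Icosl, the ICOS ligand of antigen-presenting cells, from 52.2 ± 9.30 to 84.4 ± 8.89 CPM (0.69 ± 0.19, adjusted p = 0.0349) and Alcam, the CD6 ligand, from 49.6 ± 1.94 to 63.7 ± 5.15 CPM (0.36 ± 0.09, adjusted p = 0.0236). Both calls were lost with T cell marker scaling (Icosl 0.60, adjusted p = 0.0687, and Alcam 0.26, adjusted p = 0.181). With LPS, 2 rose and 2 fell. Tnfsf9, the 4-1BB ligand, rose from 3.94 ± 0.73 to 8.41 ± 0.77 CPM (1.09 ± 0.18, adjusted p = 0.00055) and Cd70, the CD27 ligand, from 0.28 ± 0.18 to 1.86 ± 0.41 CPM (2.63 ± 0.44, adjusted p = 0.000653). Icosl fell to 28.7 ± 8.59 CPM (-0.87 ± 0.19, adjusted p = 0.00368) and Spp1 to 11.7 ± 2.38 CPM (-1.15 ± 0.27, adjusted p = 0.00472). Cdcp1, another CD6 ligand, was not called against Naïve in the fit without a block at mean levels of 0.25 to 0.88 CPM, and Tnfsf18, the GITR ligand, had 2 to 17 counts per library and was not tested. With the replicate number as a block, Cd70 was higher with αCD3 (1.21, adjusted p = 0.0463) and Tnfsf4 with LPS (0.80, adjusted p = 0.0299), and Spp1 (-0.83, adjusted p = 0.0425), Tnfsf9 (-0.53, adjusted p = 0.0287) and Cdcp1 (-1.60, adjusted p = 0.0481) were lower with IFNγ. The calls of Cd70 and Cdcp1 rest on few counts. Cd70 had 1 to 7 counts per library in Naïve and 7 to 18 after αCD3, and Cdcp1 had 2.00 to 3.22 after IFNγ. The median log2 changes of the 7 ligands were 0.06, 0.36 and 0.20 with αCD3, IFNγ and LPS.

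Of the 10 adaptors of the TNF receptor pathway, 7 rose and 1 fell with LPS (median log2 change 0.44), 2 rose and 2 fell with αCD3 (median 0.02) and 1 rose with IFNγ (median 0.02). Over all genes 49.3%, 38.6% and 12.4% were called. Directly compared, 0 adaptors were higher and 5 lower after αCD3 than after LPS, against 9.64% and 9.76% of all genes. After IFNγ 2 were higher and 6 lower than after LPS, against 18% and 22.4%. Between IFNγ and αCD3, 2 were higher after IFNγ and 2 lower, against 15.8% and 21.4%. The list as a set was not tested. With libraries scaled to T cell markers, 7 adaptors rose and 1 fell with LPS, and 0 rose and 7 fell with αCD3, Siva1 being at 0.14 (adjusted p = 0.361). Of all genes, 35.6% were then higher and 10.7% lower with LPS, and 7.66% higher and 47.5% lower with αCD3. Traf1, an adaptor of 4-1BB, was at 238, 193 and 196 CPM in Naïve and at 482, 494 and 489.9 CPM after LPS (1.22 ± 0.09, edgeR adjusted p = 4.96e-06). Birc3, a ubiquitin ligase bound by TRAF2, went from 339 ± 9.34 to 532 ± 15.9 CPM (0.65 ± 0.06, adjusted p = 9.88e-06). Siva1, a CD27-binding protein, rose with αCD3 from 8.95 ± 0.15 to 12.8 ± 0.36 CPM (0.52 ± 0.11, adjusted p = 0.00302), and Map3k14, the NF-κB-inducing kinase, fell with αCD3 from 137 ± 5.19 to 112 ± 8.04 CPM (-0.28 ± 0.07, adjusted p = 0.0116). With IFNγ Traf5 rose from 17.6 ± 0.59 to 28.8 ± 1.83 CPM (0.71 ± 0.09, adjusted p = 0.000999).

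Among 12 genes of CD5, CD6 and ICOS signalling, 3 rose and 4 fell with αCD3, 1 rose with IFNγ, and 1 rose and 8 fell with LPS (medians -0.09, 0.01 and -0.36), against 38.6%, 12.4% and 49.3% of all genes called. The T cell markers fell with LPS too (5 of 8, median -0.32), and with libraries scaled to them 2 genes of this list rose and 3 fell with LPS and 2 rose and 8 fell with αCD3. That scaling left 35.6% of all genes higher and 10.7% lower with LPS, and 7.66% higher and 47.5% lower with αCD3. Cblb, a ubiquitin ligase that restrains T cell receptor signalling, was at 87.7, 82.9 and 89.9 CPM in Naïve, 166, 183 and 191 CPM after αCD3 and 129, 158 and 141 CPM after IFNγ. No treated library overlapped Naïve, and the log2 changes were 1.05 ± 0.09 (edgeR adjusted p = 1.23e-05) and 0.71 ± 0.09 (adjusted p = 0.000634). Lcp2 (SLP-76, which binds CD6) rose with αCD3 from 116 ± 8.79 to 197 ± 9.91 CPM (0.77 ± 0.11, adjusted p = 0.000281). With LPS, the kinase subunit Pik3r1 fell from 99.0 ± 1.88 to 78.1 ± 0.45 CPM (-0.34 ± 0.05, adjusted p = 0.000501) and the phosphatase Ptpn6 from 385 ± 28.5 to 259.8 ± 26.2 CPM (-0.57 ± 0.09, adjusted p = 0.000577). With T cell marker scaling Pik3r1 no longer passed (-0.14, adjusted p = 0.233).

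Of 7 regulators of mRNA decay, which limit transcripts such as that of Icos, 1 rose and 1 fell with αCD3, 1 rose with IFNγ, and 1 rose and 1 fell with LPS, against 38.6%, 12.4% and 49.3% of all genes called. Zc3h12a (Regnase-1) rose with LPS from 82.3 ± 8.25 to 184 ± 28.3 CPM (1.16 ± 0.12, edgeR adjusted p = 2.57e-05), and Zfp36l1 fell (-0.41 ± 0.14, adjusted p = 0.0316) although its LPS and Naïve libraries overlapped. Zc3h12d rose with αCD3 (0.57 ± 0.09, adjusted p = 0.000614) and with IFNγ (0.37 ± 0.09, adjusted p = 0.0197), and Zfp36 fell with αCD3 (-0.46 ± 0.14, adjusted p = 0.0221). With T cell marker scaling 0 regulators rose and 6 fell with αCD3, against 7.66% of all genes higher and 47.5% lower. Zc3h12d was then no longer called with αCD3 (0.19, adjusted p = 0.115) or IFNγ (0.28, adjusted p = 0.0903), nor Zfp36l1 with LPS (-0.21, adjusted p = 0.322). The medians of this list were -0.07, 0.09 and -0.03 with αCD3, IFNγ and LPS.

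Of 13 other costimulatory receptors, 4 rose and 2 fell with αCD3, 1 rose and 1 fell with IFNγ, and 3 rose and 4 fell with LPS (medians 0.11, -0.04 and -0.23), against 38.6%, 12.4% and 49.3% of all genes called. With T cell marker scaling 3 rose and 5 fell with αCD3, 0 rose and 1 fell with IFNγ, and 4 rose and 2 fell with LPS. Of all genes, 7.66%, 4.93% and 35.6% were then higher and 47.5%, 5.07% and 10.7% lower, in the same order. Crtam, an adhesion receptor of activated CD8 T cells, went from 7.81 ± 2.54 to 93.3 ± 14.9 CPM with αCD3 (11.8-fold higher, log2 change 3.56 ± 0.24, edgeR adjusted p = 7.03e-06) and Cd28, the classical costimulatory receptor, from 65.2 ± 14.3 to 228 ± 2.56 CPM (1.80 ± 0.20, adjusted p = 9.45e-05). With IFNγ, Tnfrsf14 rose (0.49 ± 0.11, adjusted p = 0.0123), a call lost with T cell marker scaling (0.39, adjusted p = 0.059), and Ly9 fell (-0.30 ± 0.09, adjusted p = 0.0493). With LPS, Slamf1 rose from 11.6 ± 1.82 to 50.5 ± 18.6 CPM (2.13 ± 0.26, adjusted p = 8.27e-05) and Tnfrsf1b, a TNF receptor, from 233 ± 29.2 to 397 ± 55.4 CPM (0.77 ± 0.12, adjusted p = 0.000339). Slamf1 rose with αCD3 too, to 52.4 ± 2.47 CPM (2.18 ± 0.26, adjusted p = 0.000117).

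S1pr1, the sphingosine-1-phosphate receptor that the CD69 protein binds, fell with αCD3 from 458 ± 60.7 to 172 ± 80.9 CPM (-1.41 ± 0.28, edgeR adjusted p = 0.00319) and with LPS to 266 ± 48.8 CPM (-0.78 ± 0.28, adjusted p = 0.0391). With IFNγ, where Cd69 rose 2.64-fold, the log2 change of S1pr1 was -0.25 (adjusted p = 0.637), and with the replicate number as a block it was -0.26 ± 0.16 (adjusted p = 0.284). The level was lower after IFNγ than in Naïve for 3 of 3 replicate numbers, but neither fit called it. How many of all genes kept 1 direction in this way was not counted. Of the 4 listed binding partners of CD69 and CD44, 1 rose and 1 fell with αCD3, 1 rose with IFNγ, and 1 rose and 1 fell with LPS. Over all genes 38.6%, 12.4% and 49.3% were called. Of the proteins that link CD44 to actin, Rdx rose with αCD3 (0.36 ± 0.06, adjusted p = 0.000529) and LPS (0.21 ± 0.06, adjusted p = 0.00994), and Msn rose with IFNγ (0.37 ± 0.06, adjusted p = 0.00325). Ezr was not called (0.10, 0.25 and 0.26 with αCD3, IFNγ and LPS, adjusted p = 0.468, 0.149 and 0.052). With the replicate block it was higher with IFNγ (0.26, adjusted p = 0.0246) and LPS (0.26, adjusted p = 0.00936). With T cell marker scaling S1pr1 was no longer called with LPS (-0.58, adjusted p = 0.148), nor Rdx with αCD3 (-0.02, adjusted p = 0.839). Of the 4 genes, 0 then rose and 3 fell with αCD3, against 7.66% of all genes higher and 47.5% lower. With LPS 3 rose and 0 fell, against 35.6% and 10.7%.

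Genes with a pattern like that of each receptor were ranked by Pearson correlation of log2 CPM over the 12 libraries, which share groups and replicate numbers. Cd6 was closest to Cd28 (r = 0.99), Cd27 and Cd5 (both 0.98). Cd5 was closest to Cd3g, a subunit of the CD3 complex (0.98), Cd6 and Cd27, and Cd27 was close to Cd28 (0.99) and Cd6. Tnfrsf9 was closest to Minos1 (0.99), Hspa14 (0.98) and the chemokine gene Xcl1 (0.98), and Icos to Smyd1, Xcl1 (both 0.98) and Nkg7, a cytotoxic granule gene (0.97). Tnfrsf9 and Icos had r = 0.97 with each other. Cd69 was closest to Atp13a1, Snw1 (both 0.98) and the cytokine gene Tnf (0.97), and Cd44 to BC035044, Ebi3 (both 0.98) and Myo1g (0.97). Tnfrsf4 and Tnfrsf18 shared Actg1 as their closest gene (0.94 and 0.93), and had r = 0.80 with each other. After Actg1 came Mrps18c and Cish (both 0.93) for Tnfrsf4 and St3gal4 and Mmp14 (both 0.92) for Tnfrsf18.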

How the data were processed

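Reads had been assigned to mm10 transcripts by the authors with Kallisto (version not given in the sources used here), and the deposited values are estimated counts for each gene symbol and library, with no scaling. The submitters' processing notes also name DESeq2 1.24.0. Reads that match several transcripts are divided among them, so these expected counts are not always whole, and they were rounded for the tests. Depth was 10196248 to 27610175 counts per library.

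Libraries were grouped by the labels. All 12 entered a single fit in edgeR 4.0.16 (R 4.3.3; TMM factors, filterByExpr, robust glmQLFit, glmQLFTest) with the group as the only term, in which 6 contrasts and a test for any difference were made. The Benjamini-Hochberg adjustment was made over the 12122 genes tested, and SE and 95% intervals come from that fit. CPM used unrounded counts. The code was tested on simulated counts. Alternatives were RLE factors, library size alone, no filter, DESeq2 1.42.0, limma-voom 3.58.1, unrounded counts, the compared groups only, a replicate block and leaving out each library in turn. Scaling to T cell markers and leaving out replicate 1 of every group were chosen after seeing the data.

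Same-numbered libraries deviated together from their group means (r = 0.12 to 0.40 in 18 pairs, against -0.35 to 0.10 in 36 pairs of different numbers), so the numbers were taken as pairing the libraries, a pairing read from the data and the shared numbers in the labels. No libraries agreed within sampling noise (chi-square test of counts).

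The 9 receptors and all gene lists were chosen with earlier results of these data known. Every receptor and ligand is named. Of each other list, the 2 genes with the smallest adjusted p in each comparison with Naïve could be named, along with the 3 genes most correlated with each receptor, predicted genes left out; 1 gene chosen by this rule is not reported here. Promoter sequences and gene models came from RefSeq (GRCm38.p6) and GENCODE M21.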

Additional observations from a re-analysis of the deposited data

How the results depend on the processing

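Over 21 alternatives, leaving aside the scaling to T cell markers, 23 of the 28 called differences of the 9 receptors were kept in every one, 5 were lost in at least 1, and none changed sign. The 5 were those of Cd27 and Cd6 between LPS and Naïve, Cd27 and Cd5 between IFNγ and LPS, and Cd69 between αCD3 and LPS. Of the 26 differences not called, 11 were never called. With the replicate block, 2 receptors differed between IFNγ and Naïve (1 without it) and 8 between IFNγ and LPS (4 without it), and 2 differed between IFNγ and Naïve with library size alone. Without replicate 1 of every group, 4 receptors differed between IFNγ and Naïve, 8 between LPS and Naïve (5 with it) and 8 between IFNγ and LPS, against 23.3%, 55.1% and 47.8% of all genes. Leaving out 1 library gave 6 to 7 receptors for αCD3 against Naïve, 1 to 2 for IFNγ against Naïve, 3 to 7 for LPS against Naïve, 5 to 6 for IFNγ against αCD3, 2 to 8 for IFNγ against LPS and 6 to 7 for αCD3 against LPS. Over all genes these fits called 25.4% to 40.2%, 6.38% to 13.4%, 38.6% to 49.8%, 28.1% to 38%, 31.9% to 41.1% and 11.6% to 21%, in the same order. The lowest counts with LPS came without Naïve replicate 1, LPS replicate 2 or LPS replicate 3 (3 against Naïve) and without IFNγ replicate 1, LPS replicate 2 or LPS replicate 3 (2 against IFNγ), and the highest without LPS replicate 1.

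Over all genes, 1508 were called between IFNγ and Naïve, but 2279 with library size alone, 3020 with the block, 2837 without replicate 1 of every group and 787 to 1651 without 1 library. Between αCD3 and LPS 2351 were called, but 1440 in a fit of the compared groups only, 4202 with the block, 3582 without replicate 1 of every group, 1429 to 2590 without 1 library and 8287 with T cell marker scaling. Of the 54 listed pathway genes, 8 were called between IFNγ and Naïve (7 higher and 1 lower), but 12 with library size alone (3 higher and 9 lower). They were 17 with the block, 17 without replicate 1 of every group, 4 with T cell marker scaling and 3 to 9 without 1 library. T cell marker scaling gave 36 (6 higher and 30 lower) in place of 23 (12 and 11) between αCD3 and Naïve, 38 (5 and 33) in place of 24 (13 and 11) between αCD3 and LPS and 28 (20 and 8) in place of 32 (15 and 17) between LPS and Naïve, and leaving out 1 library gave 14 to 24 for αCD3 against Naïve and 15 to 28 (25 with all libraries) for IFNγ against αCD3. The cause of these shifts was not tested. Library size alone moved the median log2 change of all genes to -0.13, -0.16 and -0.22 with αCD3, IFNγ and LPS. Higher genes then made up 44%, 31.4% and 32.8% of those called, in place of 59.3%, 65.6% and 54.7%, and 68.8% in place of 49.7% for αCD3 against LPS. With T cell marker scaling they made up 13.9%, 49.3% and 77% against Naïve, 79.7% for IFNγ against αCD3 (42.5% with TMM), 12.5% for IFNγ against LPS (44.6% with TMM) and 3.07% for αCD3 against LPS.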

Other observations

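Replicate 1 of every group had the lowest summed erythroid and platelet markers and the lowest summed myeloid markers of its group, and the receptors divided by their place in it. Cd27, Cd5 and Cd6 were highest in replicate 1 in 4 of 4 groups, and Tnfrsf4, Tnfrsf9, Tnfrsf18 and Icos were lowest there in 4 of 4 groups. Same-numbered libraries deviated together over all tested genes (r = 0.12 to 0.40). How many of all genes had such places was not counted, so they cannot be read as particular to the receptors. Cd69 was lowest in replicate 1 in 3 groups and highest in 1, and Cd44 was lowest in 2 and highest in 1.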
